A study of Mus musculus with 31 samples.

Results

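The transcription factors that hold mouse embryonic stem cells (mESCs) in the naive state were followed through the RNA-seq of mESCs that lack the Trim71-binding region of the *Ago2* mRNA, lack *Ago2*, or lack both. The set was fixed by gene name, with earlier results of these data known. It held 10 genes, *Pou5f1*, *Sox2*, *Nanog*, *Klf2*, *Klf4*, *Tbx3*, *Esrrb*, *Tfcp2l1*, *Zfp42*, and *Prdm14*. A row was found for 9 of the 10 among the 15034 genes of the deposited table, and all 9 passed the filter on low values. *Sox2* had no row, so nothing is said here of its RNA.

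All cells were derived from ES-E14TG2a mESCs. The labels list a serum medium with leukemia inhibitory factor (Lif) and a 2i and Lif medium, which holds inhibitors of MEK and GSK3, and the study states that the cells used for profiling were kept in 2i and Lif. The RNA-seq comprised 12 libraries, 2 of WT mESCs, 2 of CLIPΔ mESCs, 4 of *Ago2* KO mESCs, and 4 of *Ago2* KO/CLIPΔ mESCs. CLIPΔ mESCs lack the Trim71-binding region of the *Ago2* 3’UTR on both alleles. All 4 genotypes carry a FLAG tag on the endogenous Trim71, since the study uses WT as the name of its FLAG-Trim71 cells and made the other lines from them. The study made 2 independent CLIPΔ clones, and the labels do not say which library came from which clone. For the 2 genotypes without Ago2, its coding region was disrupted with CRISPR/Cas9 and lines were grown from single cells. The labels call the libraries of a genotype biological replicates without saying whether they were separate clones or cultures, so p-values measure the spread between these libraries.

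In the naive state, Lif acts through JAK and STAT3 on *Klf4* and *Tfcp2l1*, inhibition of GSK3 relieves the repressor Tcf7l1 from *Esrrb*, *Nanog*, *Klf2*, and *Tfcp2l1*, and inhibition of MEK blocks the FGF4 signal that drives cells toward differentiation. Pou5f1 (Oct4) and Sox2 bind DNA together and form the core of the network, to which Nanog belongs. Klf2, Klf4, Esrrb, Tfcp2l1, and Tbx3 act as ancillary factors with overlapping roles. Prdm14 represses FGF receptor signalling and DNA methyltransferases, and *Zfp42* (Rex1) serves as a reporter of the naive state.

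Levels are given in TPM, read counts that the authors scaled by transcript length and to the same total in each library. Levels of different genes can thus be compared, within the limit that 1 transcript per gene, the longest, was counted. The libraries summed to between 998656 and 999501 TPM, and their depth is unknown. *Ago2* itself was at 28.2 and 21.6 TPM in WT and at 27.3 and 20.3 TPM in CLIPΔ, and between 1.51 and 2.88 TPM in the 8 libraries labelled as *Ago2*-deleted, so that the labelled deletions were seen in every library. *Trim71* was at 34.9 TPM in both WT libraries and between 22.5 and 28.5 TPM in the other 10. The 10 mESC markers outside the set summed to between 7736 and 11260 TPM in every library. The 6 detected of 7 primed epiblast markers summed to between 108 and 287 TPM, with *Fgf5* absent from the table. Each of the other marker lists (primitive endoderm, trophoblast, mesoderm, neural, fibroblast, and 2-cell-like) summed to no more than 110.2 TPM in any library. Of the neural list, *Nes* and *Pax6* had a row, with *Sox1* absent from the table. *Nes* made up nearly all of the neural sum, at 110.0 TPM where that sum was 110.2 TPM. Correlations across genes between libraries were between 0.939 and 0.978 across the presence and loss of *Ago2*, and between 0.968 and 0.999 among libraries alike in that. In bulk RNA, fewer cells that express a gene and less RNA per cell cannot be told apart.

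*Pou5f1* had the highest level of the 9 genes in every genotype, and *Prdm14* the lowest. Over the 12 libraries, *Pou5f1* ran from 2313 to 3262 TPM, *Klf2* from 1237 to 2243 TPM, *Klf4* from 641 to 1246 TPM, and *Nanog* from 581 to 1204 TPM. Below these came *Zfp42* from 511 to 675 TPM, *Tbx3* from 177 to 392 TPM, *Tfcp2l1* from 104 to 213 TPM, *Esrrb* from 56.4 to 78.1 TPM, and *Prdm14* from 16.7 to 49.1 TPM. In WT, *Pou5f1* ranked 40 and *Klf2* 105 among all genes of the table, while *Esrrb* ranked 2205 and *Prdm14* 3674. The order of the group means was the same in every genotype but for *Klf4* and *Nanog*. *Klf4* stood above *Nanog* in WT, *Ago2* KO, and *Ago2* KO/CLIPΔ with overlapping libraries, and below *Nanog* in CLIPΔ with no overlap. The other neighbours that overlapped were *Klf2* and *Klf4* in WT, *Tbx3* and *Tfcp2l1* in CLIPΔ, and *Nanog* and *Zfp42* in *Ago2* KO. The 9 genes together held between 0.675% and 0.818% of the TPM of a library. The least variable were *Zfp42*, *Esrrb*, and *Pou5f1*, whose highest library was 1.32, 1.38, and 1.41 times the lowest, and the most variable was *Prdm14*, at 2.93 times.

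**Figure D1:**
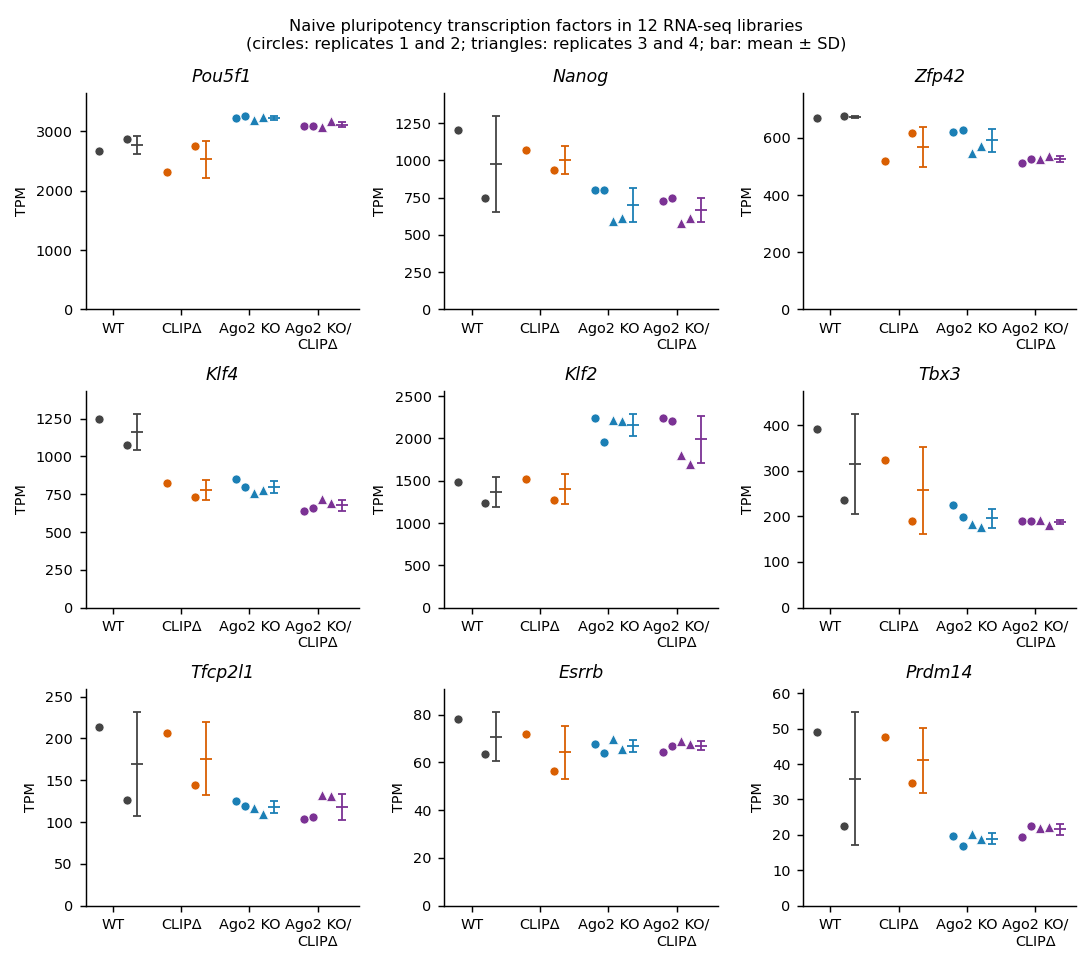
Level of each of the 9 genes (TPM, linear axes from 0) in the 12 RNA-seq libraries by genotype, with circles for replicates 1 and 2, triangles for replicates 3 and 4, and a bar at the mean ± SD. *Klf4* sits at 1246 and 1076 TPM in WT and at or below 852 TPM in the other 10 libraries, and *Klf2* is at or above 1703 TPM in all 8 libraries without *Ago2* and at or below 1524 TPM in the other 4.

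The first comparison asked what the loss of the Trim71-binding region did to these genes. *Klf4*, which encodes a zinc finger factor downstream of STAT3, fell in CLIPΔ. It was at 1246 and 1076 TPM in WT and at 825 and 731 TPM in CLIPΔ. Both CLIPΔ libraries were below both WT libraries, and the ratio of the means was 0.67. The difference was −0.58 on the log2(TPM + 1) scale (SE 0.11, 95% interval −0.81 to −0.34, adjusted p = 0.0183, limma over 11287 genes). *Klf4* was the 1 of 9 genes called, where 2.27% of all genes tested were called and 0.806% were called lower. *Klf4* lies at chr4:55527143-55532466 on the minus strand of mm10.

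*Zfp42* (chr8:43295063-43306980, minus strand) was at 671 and 675 TPM in WT and at 519 and 618 TPM in CLIPΔ, again without overlap, and did not pass the test (−0.25, SE 0.10, adjusted p = 0.326). Of all genes tested, 19.5% were lower in CLIPΔ without overlap. The core factors overlapped between the genotypes. *Pou5f1* (chr17:35506018-35510772, plus strand) was at 2672 and 2879.5 TPM in WT and at 2313 and 2754.5 TPM in CLIPΔ. *Nanog* (chr6:122707489-122714633, plus strand) was at 1204 and 749 TPM in WT and at 1069 and 939 TPM in CLIPΔ. Neither passed the test, and the intervals of their differences were −0.35 to 0.08 for *Pou5f1* and −0.41 to 0.57 for *Nanog*. 

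The other ancillary factors and *Prdm14* overlapped as well. *Klf2* (chr8:72319033-72321656, plus strand), a close relative of *Klf4*, was at 1490.5 and 1237 TPM in WT and at 1524 and 1276 TPM in CLIPΔ, a difference of 0.04 (SE 0.16). *Esrrb* (chr12:86361117-86521628, plus strand), an orphan nuclear receptor, was at 78.1 and 63.7 TPM in WT and at 72.0 and 56.4 TPM in CLIPΔ. *Tfcp2l1* (chr1:118627945-118685168, plus strand) was at 213 and 126 TPM in WT and at 206 and 145 TPM in CLIPΔ. These 3 genes differed little between the genotypes beside the distance between replicates. *Tbx3* (chr5:119670669-119684724, plus strand), a T-box factor, was at 392 and 237 TPM in WT and at 325 and 189 TPM in CLIPΔ. *Prdm14* (chr1:13113457-13127163, minus strand) was at 49.1 and 22.5 TPM in WT and at 47.6 and 34.6 TPM in CLIPΔ. For these last 2 the intervals were wide, from −0.83 to 0.24 and from −0.31 to 0.86.

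Replicate 1 and replicate 2 of WT and CLIPΔ were themselves apart. *Nanog*, *Klf2*, *Klf4*, *Esrrb*, *Tfcp2l1*, *Tbx3*, and *Prdm14* were higher in replicate 1 than in replicate 2 in both genotypes, as were 41% of all genes tested, and *Pou5f1* and *Zfp42* were lower in both, as were 37.3%. The gap was widest for *Prdm14* in WT (1.09 on the log2 scale), followed by *Tbx3* in CLIPΔ (0.77), *Tfcp2l1* in WT (0.76), and *Tbx3* in WT (0.73). *Egr1*, an immediate early gene induced by ERK, was at 2481 TPM in replicate 1 and 68.3 TPM in replicate 2 of WT, and at 1613 and 57.3 TPM in those of CLIPΔ, and its part in the gap of the members was not tested. Of the marker lists, the neural sum was between 66.1 and 73.9 TPM in WT and between 96.0 and 110.2 TPM in CLIPΔ. The trophoblast sum was between 68.6 and 75.1 TPM and between 43.9 and 50.1 TPM. The primed epiblast sum was between 188 and 287 TPM in WT and between 149 and 199.8 TPM in CLIPΔ. Neither the 1 neural gene tested, *Nes*, nor any of the 3 trophoblast genes tested was called. None of the 5 primed markers tested was called either, and their median was −0.52 against −0.05 for all genes. The part of these sums in the fall of *Klf4* was not tested. The call of *Klf4* rested on the spread shared by all 12 libraries. It was lost when only the 4 libraries compared were fitted (adjusted p = 0.811), when only replicates 1 and 2 of every genotype were fitted (0.0896), without WT replicate 1 (0.0764), and without CLIPΔ replicate 2 (0.0664), with a difference between −0.47 and −0.58 in these fits.

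The second comparison asked whether the CLIP deletion had an effect when *Ago2* was gone. With *Ago2* deleted, none of the 9 genes passed the test between *Ago2* KO/CLIPΔ and *Ago2* KO, where 0.877% of all genes did. At an unadjusted p under 0.05 there were 2 of the 9, *Klf4* and *Zfp42*, and 1243 of the 11287 genes tested. *Klf4* was at 852, 801, 759, and 775 TPM in *Ago2* KO and at 641, 657, 719, and 689 TPM in *Ago2* KO/CLIPΔ. All 4 double libraries were below all 4 *Ago2* KO libraries, with a ratio of the means of 0.849 (−0.24, SE 0.08, adjusted p = 0.228, limma). *Zfp42* was at 621, 628, 546, and 571 TPM in *Ago2* KO and at 511, 527, 524, and 538 TPM in *Ago2* KO/CLIPΔ (−0.17, SE 0.07, adjusted p = 0.426). *Pou5f1* was also lower without overlap, at 3222, 3262, 3192, and 3239 TPM against 3095, 3094, 3084, and 3178 TPM, a difference of −0.05 (SE 0.07). Of all genes tested, 9.54% were lower without overlap. Of the 5 primed epiblast markers tested, 1 was called, *Sox3*, which fell by 1.18. Its part in these differences was not tested.

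The remaining 6 genes overlapped, with differences from −0.13 (*Klf2*) to 0.18 (*Prdm14*). *Esrrb* had the narrowest of their intervals, from −0.19 to 0.20, with 67.6, 64.0, 69.7, and 65.8 TPM in *Ago2* KO and 64.3, 67.1, 68.9, and 67.8 TPM in *Ago2* KO/CLIPΔ. Replicates of the same number deviated together in these 2 genotypes. With the replicate number as a block, 180 genes in place of 99 were called, and 758 with a block kept within each *Ago2* background, an alternative chosen after the data were seen. None of the 9 members was among the calls of either fit, and *Klf4* had an adjusted p of 0.162 and 0.0531.

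**Figure D2:**
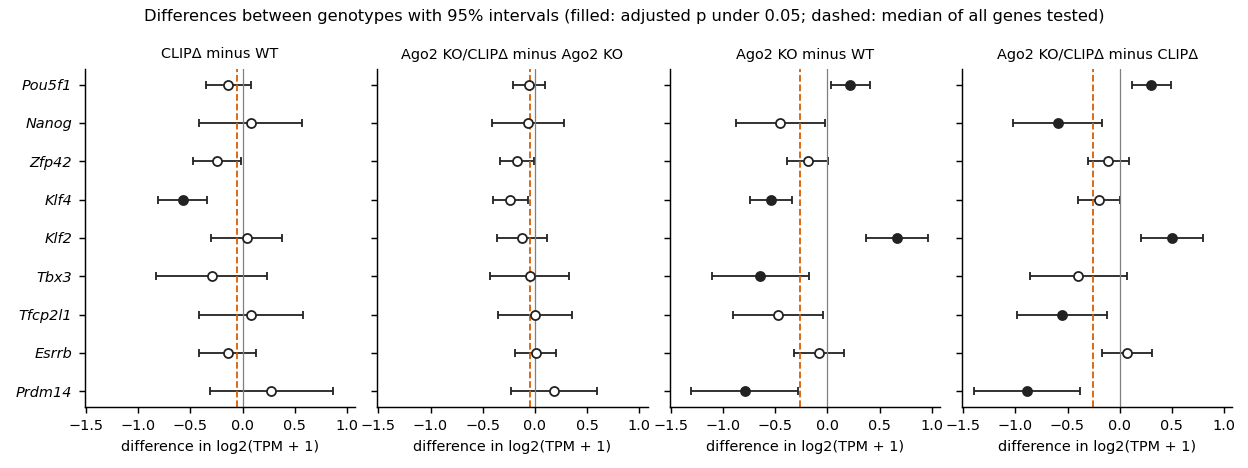
Difference between genotypes on the log2(TPM + 1) scale (points, with 95% intervals) for each of the 9 genes in 4 comparisons, filled where the adjusted p was under 0.05, with a dashed line at the median of all genes tested. *Klf4* is filled and left of 0 in the CLIPΔ minus WT and *Ago2* KO minus WT panels, while *Klf2* and *Pou5f1* are filled and right of 0 in both comparisons of *Ago2* loss.

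The effect of the CLIP deletion was not shown to differ between the *Ago2* backgrounds for any of the 9. The interaction was called for 0.647% of all genes and for none of these. At an unadjusted p under 0.05 there were 904 of the 11287 genes tested and 1 of the 9 members. For that gene, *Klf4*, the deletion went with a difference of −0.58 with *Ago2* present and −0.24 without it, and the interaction was 0.34 (SE 0.13, interval 0.05 to 0.63, adjusted p = 0.5).

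The third comparison set libraries without *Ago2* against libraries with it, first without the CLIP deletion. The labels name no batch, culture, or clone for these libraries. A difference of that kind cannot be told apart from the loss of *Ago2*. Between *Ago2* KO and WT, 56.4% of all genes tested were called, 1579 higher and 4785 lower. The median gene was lower by 0.26 on the log2 scale, so the members are also given relative to that median. Of the 9 genes, 5 were called. *Klf2* and *Pou5f1* rose, and *Klf4*, *Tbx3*, and *Prdm14* fell. Among all genes, 14% were called higher and 42.4% lower.

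*Klf2* was at 2243, 1959, 2217, and 2206.5 TPM in *Ago2* KO, above both WT libraries (as were 18.3% of all genes), with a ratio of the means of 1.58 (0.66, SE 0.14, adjusted p = 0.00172, and 0.92 above the median gene). *Pou5f1* was at 3222, 3262, 3192, and 3239 TPM, also above both WT libraries (0.22, SE 0.09, adjusted p = 0.0467, and 0.48 above the median gene). *Klf4* was below both WT libraries in all 4 *Ago2* KO libraries (−0.54, SE 0.09, adjusted p = 0.000666), as it was in CLIPΔ, and both comparisons share the WT libraries. *Tbx3* was at 224, 199, 182, and 177 TPM (−0.64, SE 0.21, adjusted p = 0.0223). *Prdm14* was at 19.5, 16.7, 20.3, and 18.9 TPM (−0.79, SE 0.23, adjusted p = 0.0128). All 3 that fell were lower without overlap, as were 50.2% of all genes tested. Relative to the median gene they were lower by less, at −0.28 for *Klf4*, −0.38 for *Tbx3*, and −0.53 for *Prdm14*.

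The other 4 genes did not pass the test. *Nanog* was at 802, 804, 592, and 611 TPM in *Ago2* KO (−0.45, SE 0.19, adjusted p = 0.0661) and overlapped with WT. *Tfcp2l1* was at 126, 119.6, 117, and 109 TPM (−0.47, SE 0.20, adjusted p = 0.0577). *Zfp42* was at 621, 628, 546, and 571 TPM, a difference of −0.19. It became 0.16 when libraries were scaled to the same median and −0.29 with quantile scaling. *Esrrb* differed by −0.08, with an interval from −0.32 to 0.16, and by 0.27 after median scaling. Of the calls, that of *Klf2* held in all 22 alternatives, that of *Klf4* in 21, that of *Prdm14* in 18, and that of *Tbx3* in 17. The call of *Pou5f1* held in 8 of the 22, with an adjusted p of up to 0.271. After scaling to the same median, *Klf2* and *Pou5f1* were the 2 members called, both higher, and the split of all calls became 3559 higher and 2371 lower. With quantile scaling 5 members were called, *Klf2* higher and *Nanog*, *Klf4*, *Zfp42*, and *Tbx3* lower, and *Pou5f1* was not called. Without WT replicate 1, 2 members were called in place of 5, and without *Ago2* KO replicate 4, 3 were. In these 2 genotypes the primed epiblast sum was between 188 and 287 TPM in WT and between 113 and 154 TPM in *Ago2* KO. Within it, *Zic2* was at 179 and 77.4 TPM in WT and at 27.5, 19.4, 21.4, and 24.8 TPM in *Ago2* KO. *Zic2* was the 1 called of the 5 primed markers tested, whose median was −0.06 against −0.26 for all genes. The neural sum, nearly all *Nes*, was between 66.1 and 73.9 TPM and between 26.4 and 29.6 TPM. The part of these sums in the differences was not tested.

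With the CLIP deletion in place, libraries without and with *Ago2* were compared among the other 6, under the same limit. *Ago2* KO/CLIPΔ against CLIPΔ called 54.9% of all genes, with a median gene lower by 0.25, and 5 of the 9 members. Among all genes, 12.8% were called higher and 42.1% lower, and among the members 2 and 3. *Klf2* rose, from 1524 and 1276 TPM to 2242, 2209.5, 1801, and 1703 TPM (0.50, SE 0.14, adjusted p = 0.0088). *Pou5f1* rose from 2313 and 2754.5 TPM to between 3084 and 3178 TPM (0.30, SE 0.09, adjusted p = 0.0113). In both genes every library without *Ago2* was above both CLIPΔ libraries, as in 16.7% of all genes.

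*Prdm14* fell from 47.6 and 34.6 TPM to 19.4, 22.5, 21.9, and 22.3 TPM (−0.88, SE 0.23, adjusted p = 0.0076). *Nanog* fell from 1069 and 939 TPM to 729, 746, 581, and 613 TPM (−0.59, SE 0.19, adjusted p = 0.0219). *Tfcp2l1* fell from 206 and 145 TPM to 104, 106, 132, and 131 TPM (−0.55, SE 0.20, adjusted p = 0.032). These 3 genes were lower in every library without *Ago2*, as were 48.3% of all genes tested, and by 0.63, 0.34, and 0.30 relative to the median gene. *Klf4*, at 641, 657, 719, and 689 TPM against 825 and 731 TPM in CLIPΔ, did not pass the test (−0.20, SE 0.09, adjusted p = 0.0861), and its difference was 0.13 after median scaling. *Tbx3* was at 189.9, 190.5, 191, and 182 TPM against 325 and 189 TPM and overlapped. After median scaling, 3 members were called, *Klf2*, *Pou5f1*, and *Esrrb*, all higher, and the split of all calls went from 1446 higher and 4755 lower to 3401 and 2365. With quantile scaling 3 members were called, *Klf2* higher and *Nanog* and *Prdm14* lower. Without CLIPΔ replicate 1, *Klf2* was the 1 member called. Over the 22 alternatives the calls held in 21 for *Klf2*, in 19 each for *Pou5f1*, *Nanog*, and *Prdm14*, and in 16 for *Tfcp2l1*. The neural sum, nearly all *Nes*, was between 96.0 and 110.2 TPM in CLIPΔ and between 29.1 and 40.8 TPM in *Ago2* KO/CLIPΔ. The primed epiblast sum was between 149 and 199.8 TPM and between 108 and 119.6 TPM. Of the 5 primed markers tested, 1 was called higher and 2 lower, with a median of 0.05. The part of these sums in the differences was not tested.

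In the *Ago2*-deleted genotypes, replicates 1 and 2 stood apart from replicates 3 and 4. Replicates 3 and 4 did not overlap with replicates 1 and 2 in 66.7% of all genes tested in *Ago2* KO and in 81.1% in *Ago2* KO/CLIPΔ, and in 33.5% in both genotypes in the same direction. *Nanog* was of the last kind, at 802 and 804 TPM in replicates 1 and 2 of *Ago2* KO and at 592 and 611 TPM in replicates 3 and 4. Replicates 3 and 4 differed from replicates 1 and 2 by −0.42 in *Ago2* KO and by −0.30 in *Ago2* KO/CLIPΔ for this gene. The labels name no batch that separates these pairs of replicates.

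The difference between *Ago2* KO/CLIPΔ and *Ago2* KO depended on the replicates read. *Klf4* was lower in both pairs of replicates without overlap, by −0.35 in replicates 1 and 2 and by −0.12 in replicates 3 and 4, and *Zfp42* by −0.27 and −0.07. *Tfcp2l1* was lower in replicates 1 and 2, at 104 and 106 TPM against 126 and 119.6 TPM, and higher in replicates 3 and 4, at 132 and 131 TPM against 117 and 109 TPM. *Klf2* differed by 0.09 in replicates 1 and 2 and by −0.34 in replicates 3 and 4, where the double libraries were at 1801 and 1703 TPM against 2217 and 2206.5 TPM. Fitted alone, with 2 libraries per genotype, replicates 3 and 4 called 4238 of the 11022 genes tested. Of the 9 members this fit called 3, *Klf2*, *Klf4*, and *Tfcp2l1*. With replicates 1 and 2 of every genotype fitted alone, limma called 0 genes in this comparison, with 1441 at an unadjusted p under 0.05.

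**Figure D3:**
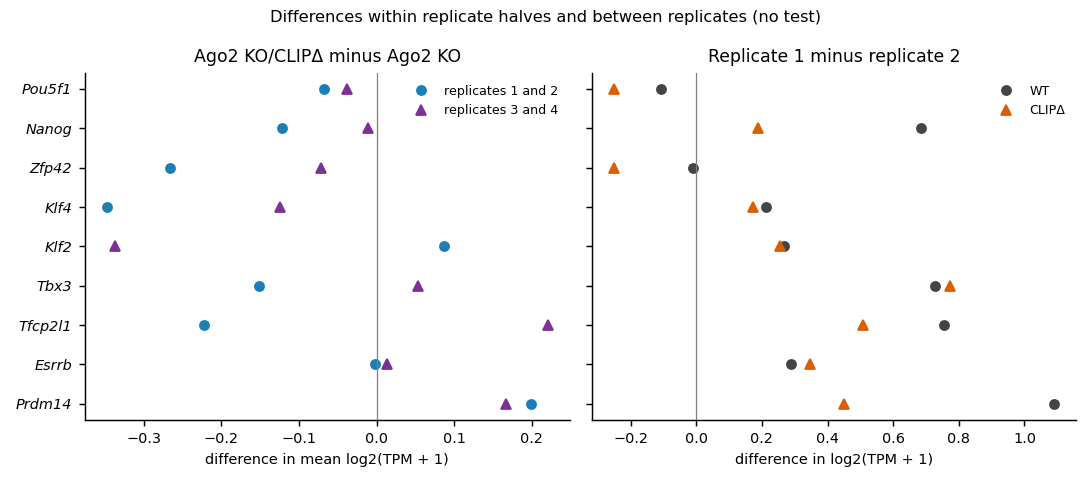
Left, difference of mean log2(TPM + 1) between *Ago2* KO/CLIPΔ and *Ago2* KO in replicates 1 and 2 (circles) and replicates 3 and 4 (triangles); right, difference between replicate 1 and replicate 2 in WT (circles) and CLIPΔ (triangles). *Tfcp2l1* is at −0.22 in replicates 1 and 2 and at 0.22 in replicates 3 and 4, and 7 of the 9 genes lie right of 0 in both genotypes in the right panel.

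Trim71 CLIP-seq, which maps where the protein contacts RNA, gave a single list of 498 peaks common to both immunoprecipitated samples, with 1 read count per peak and no replicate error. Of the 10 genes, 3 held a peak, and 2.01% of the tested genes did. These 3, *Klf4*, *Zfp42*, and *Tfcp2l1*, ranked 124, 222, and 987 by RNA level in WT. The part of RNA level in the finding of peaks was not tested. Each window is printed with the peak in capitals, in the sense of the mRNA and with mm10 positions, since these are the peaks called in the members' own genes.
*Tfcp2l1* 3’UTR, chr1:118682434-118682463, plus strand: actgcccccctaaAACaagaagcattgatc
*Klf4* 3’UTR, chr4:55527805-55527834, minus strand: caataccaaatccaACTtgaacatgcccgg
*Zfp42* intron, chr8:43297527-43297556, minus strand: catatggaattacgTATtgtcttttgaaag

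The *Tfcp2l1* peak held 1474 reads and the *Zfp42* peak 1069 reads, which ranked 336 and 377 of the 498, below the median peak of 2280.5 reads. The *Klf4* peak held 7 reads and ranked 479. A larger peak of 7869 reads lay at chr3:34551694-34551740 within *Sox2ot*, the noncoding gene (chr3:34104270-34682619, plus strand) that contains *Sox2* (chr3:34650405-34652461, plus strand) on the same strand. The *Sox2ot* peak was classed as intergenic in the list and is not in *Sox2* itself. *Sox2ot* was between 0.11 and 0.41 TPM in the RNA-seq.

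Seed matches for let-7, the miRNA family at the centre of the study, and for the miR-290 family, the most abundant of mESCs, were searched in the longest annotated 3’UTR of all 10 genes. The mature sequences are shown with the seed, bases 2 to 8, in capitals, since the matches derive from it (RefSeq, GRCm38.p6).
let-7a-5p: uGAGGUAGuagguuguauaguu
miR-291a-3p: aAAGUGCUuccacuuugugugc
The match to bases 2 to 8 followed by A, CTACCTCA for let-7 and AGCACTTA for the miR-290 family, was found on the sense strand in 1 of the 10 genes, *Esrrb*, for let-7 and in none for the miR-290 family. Of the 3’UTRs of 10835 tested genes, 3.65% held the let-7 8mer and 3.4% the miR-290 family 8mer. The *Esrrb* site is shown with the 8mer in capitals, which lies at chr12:86519682-86519689.
*Esrrb* 3’UTR, plus strand: gcttcctgcccCTACCTCAgccagccggaa
Among 728 3’UTRs within 10% of the length of that of *Esrrb*, 5.36% held it. With the 7 bases alone, let-7 still matched *Esrrb* only, and the miR-290 family matched 1 gene, *Tfcp2l1*, whose 3’UTR of 7734 nt is the longest of the set. Of 66 3’UTRs of like length, 65.2% held that 7mer. *Esrrb* did not pass the test in any of the 5 comparisons.

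The small-RNA-seq was read for 8 miRNAs known to target members, of which 7 had a row (miR-203-3p did not). Between CLIPΔ and WT, none of the 6 that passed the filter was called in limma (2 at an unadjusted p under 0.05), where 27.8% of all miRNAs were. Between *Ago2* KO/CLIPΔ and *Ago2* KO, 6 of 7 were called, where 52.2% of all were. Small RNA was compared only within each *Ago2* background. miR-134-5p, a brain-enriched miRNA that targets *Nanog* and *Sox2*, rose, and miR-470-5p, which targets *Nanog* and *Pou5f1*, fell. Their mature sequences, with those of the next 2 by size of change, share no seed (capitals).
miR-134-5p: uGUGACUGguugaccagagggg
miR-470-5p: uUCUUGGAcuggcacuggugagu
miR-183-5p: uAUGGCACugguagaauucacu
miR-296-5p: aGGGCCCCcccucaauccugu

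miR-134-5p was at 2233, 2939, 2263, and 2476 RPM (values scaled to the library total) in *Ago2* KO and at 4232, 4363, 4417, and 4462 RPM in *Ago2* KO/CLIPΔ (0.83 on the log2 scale, SE 0.09, adjusted p = 4.32e-06). miR-470-5p was at 144, 196, 188, and 198 RPM and at 84.1, 91.9, 129, and 91.8 RPM (−0.87, SE 0.16, adjusted p = 0.000291). Both differences were free of overlap between the genotypes, as were those of 48.3% of all miRNAs tested. miR-183-5p, the most abundant of the list, went from a mean of 28350 RPM (SD 2390, n = 4) to 21490 RPM (SD 464, n = 4). miR-296-5p, miR-296-3p, and miR-145a-5p fell by 0.37, 0.27, and 0.33, and miR-200c-3p did not pass the test (−0.23, adjusted p = 0.0638). Reported targets of these miRNAs with a row in the RNA-seq, *Nanog*, *Pou5f1*, and *Klf4*, were not called in the same comparison.

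**Figure D4:**
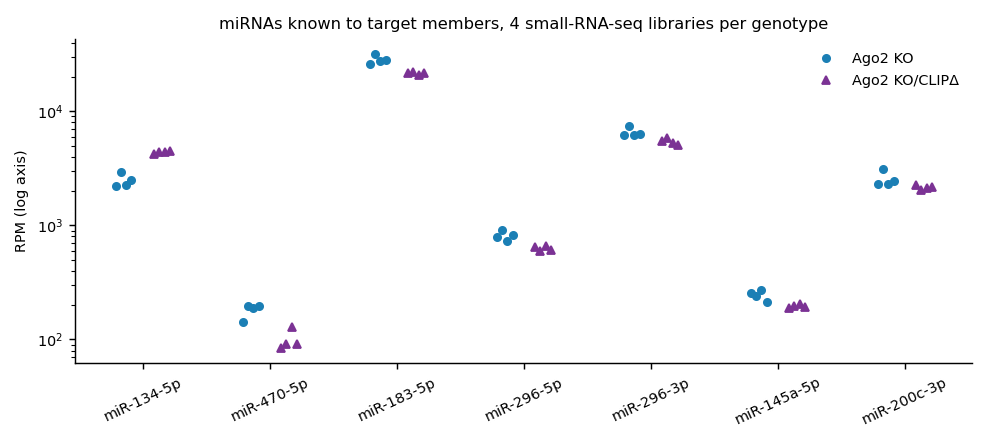
Level of the 7 miRNAs of the list (RPM, log axis) in the 4 *Ago2* KO (circles) and 4 *Ago2* KO/CLIPΔ (triangles) small-RNA-seq libraries. miR-134-5p is the 1 that lies higher in *Ago2* KO/CLIPΔ, at 4232 to 4462 RPM against 2233 to 2939 RPM.

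Around the members, the genes of the pathways that feed them were counted from lists chosen with earlier results of these data known. Between CLIPΔ and WT, few of them were called, where 2.27% of all genes tested were. None of the 9 tested genes of Lif and STAT3 signalling passed. Of WNT and GSK3 signalling 1 of 12 did, the receptor *Fzd5* (430.2 ± 49.8 TPM in WT, 301 ± 21.6 TPM in CLIPΔ, SD, n = 2), which fell by 0.51 (adjusted p = 0.0378, and 0.0688 with quantile scaling). Of FGF and ERK signalling 1 of 14 did, the feedback inhibitor *Spry4*, which fell by 1.18 (adjusted p = 0.0355), from 60.8 and 59.4 TPM to 19.9 and 33.6 TPM. None of the 18 genes of exit from the naive state passed. The medians of these 4 lists were between −0.17 and −0.10, and that of all genes was −0.05.

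*Dppa3* (Stella), a maternal factor that protects DNA methylation and marks naive cells, was the 1 called among 16 other naive-state regulators and among 10 known targets of the members, and stands in both lists. The medians of these 2 lists were −0.30 and −0.17, below that of all genes, −0.05. *Dppa3* was at 28.3 and 18.8 TPM in WT, at 269 and 117 TPM in CLIPΔ, and between 1.28 and 3.4 TPM in the 8 libraries without *Ago2*. It rose by 2.89 in CLIPΔ (SE 0.37, adjusted p = 0.00176) and fell by 2.94 in *Ago2* KO (SE 0.32, adjusted p = 6.34e-05). The interaction was called too (−2.94, SE 0.46, adjusted p = 0.0102, limma), and the double and *Ago2* KO libraries overlapped. At the low levels without *Ago2*, the log2(TPM + 1) scale shows too small a change, which limits the reading of this interaction.

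Between *Ago2* KO and WT, most called genes of the signalling lists were lower, as were most called genes of all (42.4% of genes tested lower, 14% higher). Of WNT and GSK3 signalling 7 of 12 fell and none rose, with *Apc* (−1.42), *Axin2* (−1.39), both inhibitors of WNT signalling, and the receptor gene *Lrp6* falling furthest. Of FGF and ERK signalling 8 of 14 fell and 1 rose, and the largest differences were those of *Egr1* (−7.24, with the spread between WT replicates given above), *Spry2* (−1.01), and *Sos1* (−0.98). Of Lif and STAT3 signalling 3 of 9 fell, among them the receptor subunits *Lifr* (−0.78) and *Il6st* (−0.73), and 1 rose, the kinase gene *Pim3* (0.72). Of exit from the naive state 7 of 18 fell and 3 rose, among them *Tfeb* (1.36). Of the other naive-state regulators 5 of 16 fell and 1 rose, and *Tet1* fell by 1.52 and *Tet2* by 0.98. Of the known targets 2 of 10 fell, *Dppa3* and *Tdgf1* (−0.41), and 1 rose, *Utf1*, at 1308 and 1254 TPM in WT and between 2451 and 3582 TPM in *Ago2* KO (1.19, adjusted p = 0.00113). The medians of the lists ran from −0.42 to −0.13, on both sides of that of all genes, −0.26. After median scaling the counts of calls were 5 lower and 1 higher for WNT and GSK3, 3 and 3 for FGF and ERK, 2 and 3 for Lif and STAT3, 4 and 6 for exit, 4 and 4 for the other regulators, and 1 and 2 for the known targets, and every gene named here kept its sign, with *Tdgf1* no longer called. After quantile scaling they were 7 lower and 0 higher for WNT and GSK3, 5 and 1 for FGF and ERK, 2 and 2 for Lif and STAT3, 6 and 3 for exit, 4 and 1 for the other regulators, and 2 and 1 for the known targets, so the direction of most lists depended on the scaling.

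Between *Ago2* KO/CLIPΔ and CLIPΔ, 8 of 12 genes of WNT and GSK3 signalling fell and none rose, with *Apc* (−1.21) and *Gsk3b* (−1.15) furthest. Of FGF and ERK signalling 8 of 14 fell and 4 rose, and *Spry4*, which was lower in CLIPΔ than in WT, was higher here (0.99, adjusted p = 0.00292), and the comparisons share the CLIPΔ libraries. Of Lif and STAT3 signalling 2 of 9 fell and 2 rose, *Pim3* (0.90) and the feedback inhibitor *Socs3* (0.64). Of the other regulators 5 of 16 fell and 1 rose, with *Dppa3* (−5.87), the nuclear receptor gene *Nr5a2* (−1.16), and *Tet1* (−1.06) lower. Of the known targets 2 of 10 rose, *Utf1* (1.24) and the Nodal antagonist *Lefty2* (0.96), and *Dppa3* was the 1 that fell. Of exit from the naive state 9 of 18 fell and 2 rose. Among all genes tested, 42.1% were called lower and 12.8% higher. The medians of the 6 lists ran from −0.45 to 0.09, on both sides of that of all genes, −0.25. After median scaling WNT and GSK3 signalling had 3 lower and 4 higher calls, FGF and ERK signalling 3 and 4, Lif and STAT3 signalling 0 and 4, exit 3 and 5, the other regulators 4 and 2, and the known targets 1 and 5. After quantile scaling these counts were 4 and 2, 4 and 4, 0 and 4, 4 and 4, 5 and 1, and 1 and 2, in the same order of lists. *Il6st*, called lower without scaling (−0.61), was not called under either. Between *Ago2* KO/CLIPΔ and *Ago2* KO, 1 gene of the 6 lists was called, where 0.877% of all genes were. It was *Pim1*, a STAT3 target, which rose from 120.1 ± 12.2 to 169 ± 10.7 TPM (SD, n = 4, adjusted p = 0.037, limma).

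Likeness of pattern was measured for the 3 members whose genotype means spanned the widest range, *Prdm14*, *Klf4*, and *Tbx3*. Over the 12 libraries, after the mean of each gene was taken off, *Prdm14* was closest to *Fbxo15*, *Nfkbia*, and *Ildr1*, with root mean square differences of 0.129, 0.13, and 0.138 on the log2 scale, where *Prdm14* itself spread by 0.482. *Klf4* was closest to *Sav1* (0.0775), *Pcyt1b* (0.0826), and *Atp11a* (0.0842), with a spread of its own of 0.27. *Tbx3* was closest to *Sall3* (0.0974), *Fam206a* (0.1), and *Psd* (0.107), with a spread of 0.347. The nearest other member was drawn from far fewer genes than the closest gene, so its position does not show how alike the members are. The member nearest to *Prdm14* was *Tfcp2l1*, in position 216 among all genes tested, that nearest to *Klf4* was *Zfp42*, in position 579, and that nearest to *Tbx3* was *Tfcp2l1*, in position 154. These are descriptions over 12 libraries of 4 genotypes, and libraries of a genotype share their cells.

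**Figure D5:**
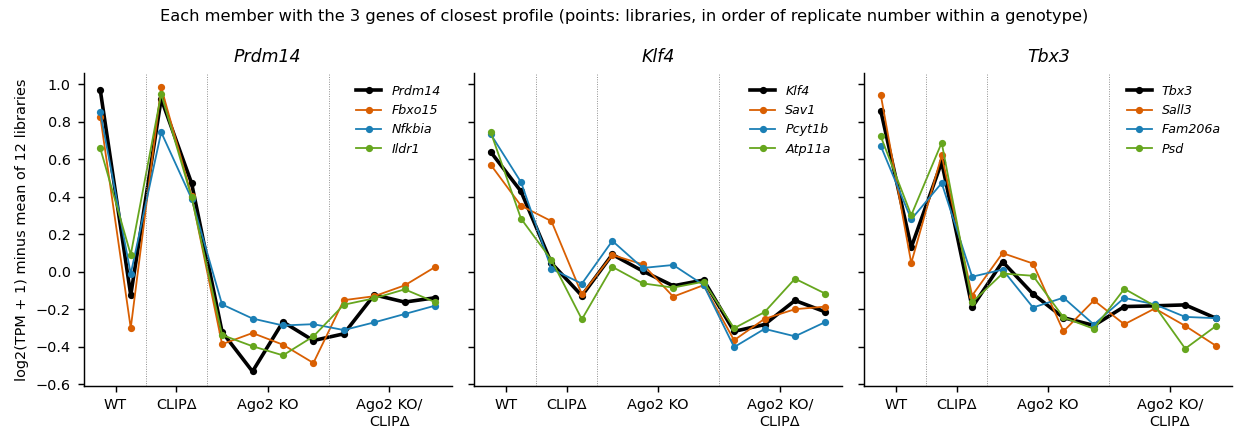
Log2(TPM + 1) minus its mean over the 12 libraries for *Prdm14*, *Klf4*, and *Tbx3* (black) and the 3 tested genes closest to each (colours), with libraries in order of replicate number within a genotype. *Prdm14* and *Tbx3* are highest in replicate 1 of WT and CLIPΔ, and *Klf4* is highest in both WT libraries.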

How the data were processed

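The study measured RNA-seq, small-RNA-seq, and Trim71 CLIP-seq in mESCs. Per the study's methods and the submitters' processing notes, the RNA-seq reads were mapped to mm10 with HISAT2 2.1.0 and counted with HTSeq over 1 transcript per gene, the longest. The authors deposited TPM values per library, and CLIP-seq peaks as read counts in 1 pooled list. HTSeq's strand setting is not given in the sources used here. Depth is unknown, and every gene of the table is above 0 in every library. *Pou5f1*, *Nanog*, and *Zfp42* have close copies or pseudogenes, so their levels are uncertain where reads map to several places.

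Columns with a code in place of a genotype were read as CLIPΔ by elimination. A gene was tested if its mean over the 12 libraries reached 1 TPM (11287 genes). The values were taken as log2(TPM + 1), on which low genes show too small a change. One model of 4 genotype means was fitted with limma 3.58.1 (lmFit, eBayes with trend, R 4.3.3), and p-values were adjusted over all genes by the Benjamini–Hochberg method and called under 0.05. For miRNAs, each deposited value was scaled to its library's sum (RPM), and those with a deposited mean of 100 or more were tested as log2(RPM + 1) among the 8 libraries compared. Same-numbered *Ago2* KO and *Ago2* KO/CLIPΔ libraries deviated together from their genotype means (r between 0.32 and 0.433 in 4 pairs). These numbers were taken to pair them only in the alternatives with a block, although the labels name no shared batch. The main fit had no block. Libraries of different numbers within replicates 1 and 2 or within 3 and 4 deviated together as well (r up to 0.467), so the data do not single out the number. 3’UTRs were the longest annotated per gene in GENCODE M21 (mm10). The scripts were tested on simulated data. Figures were drawn with matplotlib 3.10.9 in Python 3.11.15.

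The members and lists were chosen with earlier results of these data known. By rule, the text names all members, *Ago2*, *Trim71*, up to 3 called genes of each list per comparison by size of change, and the 3 genes closest in pattern to 3 members. *Egr1* between replicates and *Sox2ot* were chosen after their values were seen. Alternatives changed the pseudocount, filter, scaling, variance model, libraries fitted, and replicate block, and left out each library.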

Additional observations from a re-analysis of the deposited data

Results flagged for a closer look

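In *Ago2* KO/CLIPΔ, the highest library of *Pou5f1* (3178 TPM, replicate 4) and the lowest of *Tbx3* (182 TPM, replicate 4) stood apart from the other 3 libraries of the genotype, and in *Ago2* KO the lowest of *Klf2* did (1959 TPM, replicate 2). Dixon's test at the 95% level gave these 3 in 18 groups of 4 libraries, and chance alone marks about 1 in 20 groups.

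*Tfcp2l1* went opposite ways in the pairs of replicates. *Ago2* KO/CLIPΔ minus *Ago2* KO was −0.22 in replicates 1 and 2 and 0.22 in replicates 3 and 4, with no overlap in either pair, and the difference between the pairs was not tested.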

How the results depend on the processing

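Without a value in counts, depth and counting error could not be set against any difference, and with 2 libraries in WT and CLIPΔ a single library decides several calls. Of 1017 values of members under an alternative, 44 lost the call, 12 gained it, and 1 turned sign with a call, *Tfcp2l1* in *Ago2* KO/CLIPΔ against *Ago2* KO, at 0.22 with replicates 3 and 4 only. The other 960 stayed on their side of the threshold, 49 of them uncalled values that turned sign. Of 137 miRNA values, 5 lost the call, 3 gained it, and 129 stayed on their side, 6 of these uncalled values that turned sign. The causes of these changes were not tested.

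Between CLIPΔ and WT, 256 genes were called, 510 with no filter, 145 with a filter at a mean of 5 TPM, 424 with a term for replicates 3 and 4, 101 with replicates 1 and 2 only, 960 with a block within each *Ago2* background, and 0 with only the compared libraries. The 1 member called became 0 with only the compared libraries and with replicates 1 and 2 only. Leaving out 1 library gave 101 to 390 genes (101 without CLIPΔ replicate 1, 390 without CLIPΔ replicate 2, 165 and 168 without *Ago2* KO replicates 2 and 4) and 0 to 1 members. WT and CLIPΔ libraries of the same number also deviated together (r 0.715), but 2 pairs are too few to take the numbers as a pairing. With the block within each background, no further member was called, and *Tbx3* had an SE of 0.08 in place of 0.24 and an adjusted p of 0.0654. Without WT replicate 1 the member called was *Prdm14* (0.82) and not *Klf4*.

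Between *Ago2* KO and WT, the 5 members became 2 with median scaling and 2 with replicates 1 and 2 only. Leaving out 1 library gave 4150 to 6631 genes (4150 without WT replicate 1) and 2 to 7 members. With the replicate block, *Pou5f1* lost its call (adjusted p = 0.0528) and *Tfcp2l1* gained one (0.0326).

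Between *Ago2* KO/CLIPΔ and *Ago2* KO, 99 genes were called, 353 with only the compared libraries, 180 with the replicate block, 301 with the term for replicates 3 and 4, 0 with replicates 1 and 2 only, 4238 with replicates 3 and 4 only, and 758 with the block within each background. The 0 members became 3 of 9 with replicates 3 and 4 only, where 4238 of 11022 genes were called. Leaving out 1 library gave 21 to 161 genes and 0 members, and the count moved by over 1.5 times without every library but *Ago2* KO/CLIPΔ replicate 2 and both CLIPΔ libraries. The split of higher and lower calls was 31 and 68, and 43 and 45 with median scaling.

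Between *Ago2* KO/CLIPΔ and CLIPΔ, the 5 members became 3 with median and with quantile scaling and 1 with replicates 1 and 2 only. Leaving out 1 library gave 3648 to 6609 genes (3648 without CLIPΔ replicate 1) and 1 to 5 members. For the interaction, 73 genes were called, 168 with no filter, 39 with a filter at 5 TPM, 128 with the term for replicates 3 and 4, 0 with replicates 1 and 2 only, and 329 with the block within each background. Leaving out 1 library gave 48 (without *Ago2* KO replicate 2) to 137 genes (without CLIPΔ replicate 2) and 0 members.

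Quantile scaling gave splits of 2731 higher and 2804 lower calls between *Ago2* KO and WT and of 2714 and 2787 between *Ago2* KO/CLIPΔ and CLIPΔ. Of the miRNAs, leaving out 1 library called 0 to 1 between CLIPΔ and WT (miR-470-5p without WT replicate D, miR-296-5p without CLIPΔ replicate B) and 4 to 6 between *Ago2* KO/CLIPΔ and *Ago2* KO, where the replicate block gave 7, with miR-200c-3p added. The calls lost without 1 library there were those of miR-145a-5p (*Ago2* KO replicate 1 or 3, *Ago2* KO/CLIPΔ replicate 1 or 4) and miR-296-3p (*Ago2* KO/CLIPΔ replicate 4). The block changed no other count of members.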
